A study of Mus musculus with 6 samples.

Results

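The stefin A cluster and cystatin B were examined in mouse KSL SLAM cells, the sorted part of the bone marrow in which blood stem cells are concentrated, on 6 Affymetrix gene arrays. The genes are Stfa1, Stfa2, Stfa2l1, Stfa3, Cstdc5, Cstdc6 and Cstb. They were chosen by family, with the difference between G-CSF and PBS arrays already known for Stfa2 and Stfa3, so that difference is given here as a description with no test. Every probeset whose annotated symbols include 1 of these genes was taken, which gave 6 of the 35554 probesets of the array. Of these, 5 carry stefin A cluster genes and 1 carries Cstb.

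The cells were sorted as lineage-negative, c-Kit+, Sca-1+, CD150+, CD48- and CD41-. Donor mice were given G-CSF (granulocyte colony-stimulating factor, a cytokine that drives neutrophil production and moves stem cells into the blood) at 125 mcg/kg, 2 subcutaneous injections a day for 7 days, or PBS for 7 days. Each treatment has 3 arrays, which the design text calls 3 independent groups, and it gives 5 to 10 mice per group. The labels name no strain, age or sex, and RNA was amplified before labelling. Where p-values appear, they measure the spread between these samples. Values are log2 of the deposited intensity, and a difference is always G-CSF minus PBS on that scale. The median intensity of an array lay between 56.2 and 61.7.

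Stefins are small cytosolic proteins that bind and block papain-like cysteine proteases such as cathepsins B, H, L and S. Mice carry an expanded set of stefin A genes next to each other in the genome, while cystatin B (stefin B) is a single gene that most tissues express. Stefin A transcripts are known in myeloid cells and in stratified epithelium, and cystatin B is best known because its loss causes a progressive myoclonus epilepsy.

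In the RefSeq gene table (assembly GRCm38.p6) the stefin A members lie on chromosome 16 and Cstb lies on chromosome 10. Promoter windows were held for 5 of the 7 members, from 250 bases before to 50 bases after the start. The 120 bases before each start are shown because the 5 genes share much of their sequence there. Capitals mark the longest stretch that all 5 hold within these bases, and the letters read 5′ to 3′ on the strand of the gene.

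Stfa2l1: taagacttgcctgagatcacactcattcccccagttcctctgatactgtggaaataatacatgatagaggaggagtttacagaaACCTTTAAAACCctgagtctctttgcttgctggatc
Stfa1: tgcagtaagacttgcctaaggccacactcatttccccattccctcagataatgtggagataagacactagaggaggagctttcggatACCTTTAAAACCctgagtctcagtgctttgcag
Cstdc5: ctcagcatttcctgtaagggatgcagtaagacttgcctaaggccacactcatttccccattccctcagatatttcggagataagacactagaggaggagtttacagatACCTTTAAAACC
Stfa2: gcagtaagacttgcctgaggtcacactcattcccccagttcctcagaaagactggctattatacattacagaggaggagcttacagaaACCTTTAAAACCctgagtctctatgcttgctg
Stfa3: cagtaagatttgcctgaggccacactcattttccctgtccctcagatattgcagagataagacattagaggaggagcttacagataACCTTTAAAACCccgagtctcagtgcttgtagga

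The Stfa2l1 stretch is chr16:36156691-36156810 on the plus strand, and the Stfa1 stretch is chr16:36277028-36277147 on the plus strand. The other three lie on the minus strand, at chr16:36367571-36367690 for Cstdc5, chr16:36408364-36408483 for Stfa2 and chr16:36455393-36455512 for Stfa3. Counted from the start, with -1 the last base before it, the capital letters begin at -36 in Stfa2l1, -33 in Stfa1, -32 in Stfa2 and -34 in Stfa3. In Cstdc5 they begin at -12.

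Over the 250 bases before the start, the 10 pairs of these promoters were 69.9% to 89.4% identical in global alignment, with a median of 80.5%. Stfa2l1 and Stfa2 were the closest pair. The 15 pairs of a member with the neighbouring Csta1, Cstdc4 or Csta3 ran from 37.4% to 72.0%, with a median of 57.4%. This range overlaps that of the members, since Cstdc4 reached 72.0% with Stfa1 and 71.3% with Stfa2l1, above Stfa2l1 with Cstdc5 (69.9%). The cluster genes Cstdc3 and Gm7260 were not aligned. Pairs with Csta2 ran from 41.5% to 45.0%. The capital stretch ACCTTTAAAACC occurred on the same strand in the upstream windows of 10 genes, out of 32851 windows (0.0304%). Of these 10 genes, 9 lie between Csta1 and Stfa3 in the RefSeq order, where 11 protein-coding genes have a window. Over the 250 bases, the longest stretch that all 5 members hold was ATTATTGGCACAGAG, with its first base between -247 and -222. No other window held it (5 of 32851). Its presence in the 5 follows from how it was picked.

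Motifs of factors known from granulocytes were searched on both strands of the 300 bases. The C/EBP core TTGCNNAA matched in 2 of the 5 members, Stfa1 and Cstdc5, and in 10.8% of all windows. The ETS and PU.1 core GGAAGT matched in Stfa2l1 and Stfa2, and in 23.8% of all windows. The STAT motif TTCNNNGAA matched in 0 of 5 (8.3% of all windows), and the TATA box letters TATAAA in 0 of 5 (13.6%). The AP-1 motif TGACTCA matched in Stfa3 alone, 30 bases past the start, and in 5.2% of all windows. These are matches of letters only.

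The largest difference belonged to the probeset that carries Stfa1, Cstdc5 and Cstdc6 together. Its log2 intensity was 6.42, 5.55 and 5.91 in PBS replicates 1, 2 and 3, and 9.90, 10.74 and 10.36 in G-CSF replicates 1, 2 and 3. Every G-CSF array exceeded every PBS array, with a gap of 3.48 between the highest PBS and the lowest G-CSF array. The group means were 5.96 ± 0.44 and 10.33 ± 0.42 (SD, n = 3 each), a difference of 4.38 (SE 0.30, 20.8-fold). This was the largest of the positive differences among the 23410 probesets with at least 1 gene symbol. The probeset cannot say which of its 3 genes gave the signal. Stfa1 and Cstdc5 have no probeset of their own.

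Cstdc6 does have its own probeset, and that one was dim. It read 4.48, 4.14 and 3.44 with PBS and 4.37, 5.79 and 4.42 with G-CSF. The groups overlapped, and only G-CSF replicate 2 stood clear of the PBS arrays. The difference was 0.84 (SE 0.44), and 0.37 without G-CSF replicate 2. Of the 6 arrays, 5 lay under 5.137, the value below which the dimmest 25% of probeset means fall, so this was the single member probeset that a filter at that limit would have removed. With values under the limit raised to it, the difference was 0.22.

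Stfa3, a stefin A with a single-symbol probeset, read 5.78, 4.03 and 3.83 with PBS and 8.16, 8.10 and 9.67 with G-CSF. The groups were apart by 2.32, and the spread was wide in both, since PBS replicate 1 and G-CSF replicate 3 stood above their groups. The means were 4.55 ± 1.07 and 8.64 ± 0.89 (SD, n = 3 each), a difference of 4.10 (SE 0.62, 17.1-fold). The difference was 3.58 without G-CSF replicate 3 and 4.71 without PBS replicate 1. As 2 of the PBS arrays lay under the limit of 5.137, the difference with values raised to that limit was 3.29 (9.79-fold).

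Stfa2, another stefin A protease inhibitor, is represented by a pair of probesets. Its own read 4.08, 5.35 and 4.57 with PBS and 7.13, 7.47 and 8.29 with G-CSF. The groups did not overlap, with a gap of 1.78. The difference was 2.96 (SE 0.41, 7.79-fold) between means of 4.67 ± 0.64 and 7.63 ± 0.60 (SD, n = 3 each), or 2.42 with values raised to the limit.

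The probeset shared by Stfa2l1 and Stfa2 read 5.75, 6.02 and 6.45 with PBS and 8.39, 8.64 and 8.74 with G-CSF. It had the narrowest spread of the 6, with SDs of 0.35 and 0.18 around means of 6.07 and 8.59, and a gap of 1.95. The difference was 2.52 (SE 0.22, 5.74-fold). Both accessions that define the Stfa2 probeset also belong to this one, so the 2 are not independent readings, and Stfa2l1 has no reading of its own.

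Cstb, the single cystatin B gene, stood apart from the cluster. It read 7.39, 7.56 and 8.25 with PBS and 7.07, 8.23 and 7.97 with G-CSF, and the groups overlapped. The means were 7.73 ± 0.46 and 7.76 ± 0.61 (SD, n = 3 each), a difference of 0.02 (SE 0.36, 1.02-fold). No Cstb array was under the limit of 5.137. Leaving out 1 array moved the difference between -0.22 and 0.37. That range is no interval for the difference, and with an SE of 0.36 the arrays leave room for larger changes in either direction.

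**Figure D1:**
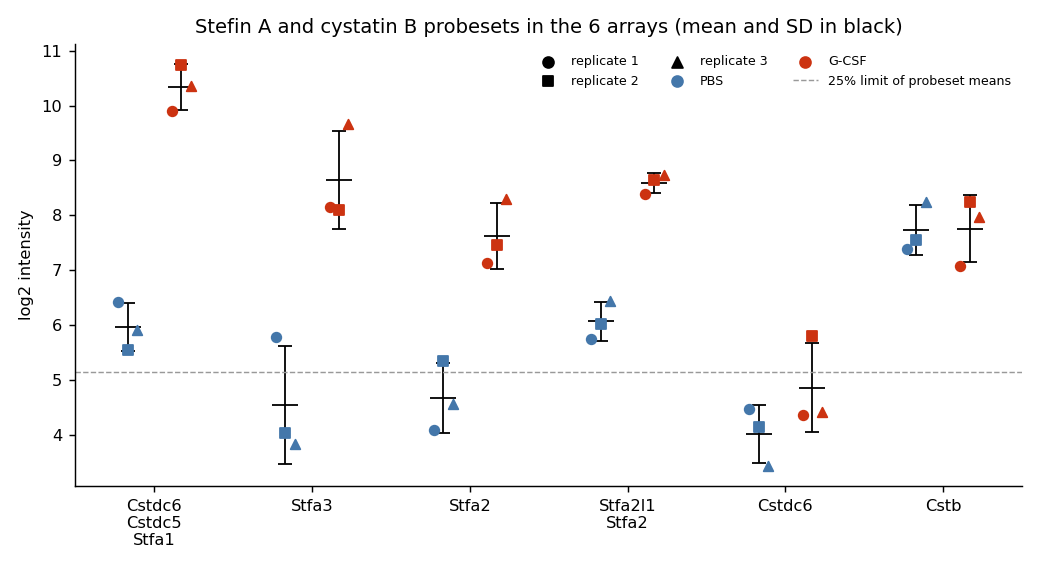
Log2 intensity (y axis) of the 6 member probesets (x axis) in each array, PBS in blue and G-CSF in red, with a marker shape for each replicate number, the mean and SD in black, and the limit of 5.137 as a dashed line. In 4 stefin A probesets the lowest G-CSF array exceeds the highest PBS array, while the groups overlap for Cstdc6 and Cstb.

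In all, the groups did not overlap in 4 of the 6 member probesets, each with G-CSF higher. Over all 23410 probesets with a symbol, 5.34% were separated in this way with G-CSF higher and 4.5% with G-CSF lower. The same 4 differed by at least 2, as did 0.175% of all probesets (41). Because the genes were chosen with this contrast known, these counts describe the members and support nothing further. Ordered by difference among the 23410 probesets, the shared Stfa1, Cstdc5 and Cstdc6 probeset was at place 1, Stfa3 at 3, Stfa2 at 10, the shared Stfa2l1 and Stfa2 probeset at 16, Cstdc6 at 360 and Cstb at 11052. The median difference over all probesets was 0.01. In sorted cell fractions such as these, a higher share of cells that hold a transcript and more of it per cell cannot be told apart.

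**Figure D2:**
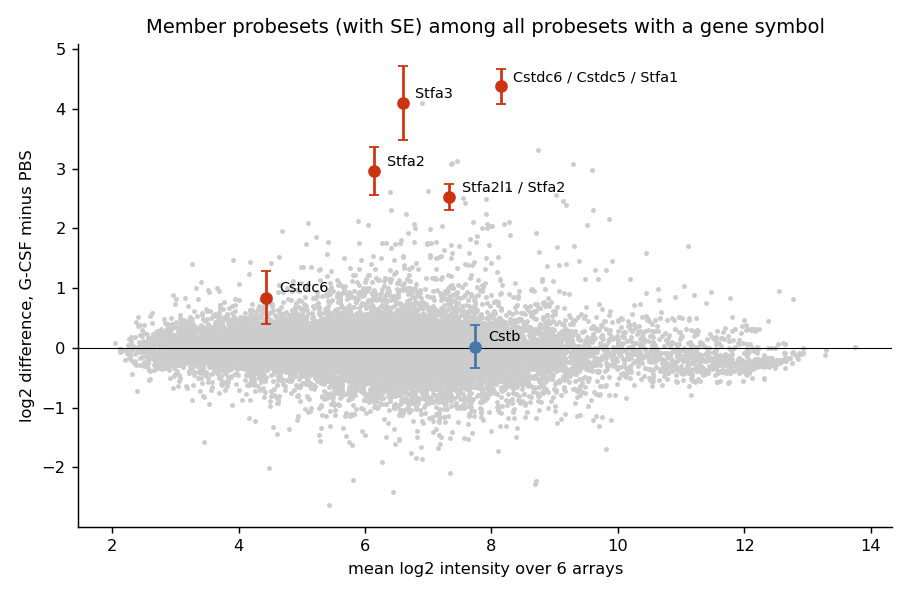
Log2 difference, G-CSF minus PBS (y axis), against the mean log2 intensity over the 6 arrays (x axis) for 23410 probesets in grey, with the 5 stefin A cluster probesets in red and Cstb in blue, and bars of 1 SE. The shared Stfa1, Cstdc5 and Cstdc6 probeset (4.38) and Stfa3 (4.10) lie at the top of the plot, and Cstb (0.02) lies at the middle of the cloud.

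Neighbouring genes were read in the order of the RefSeq table, a look taken after the members' values were seen and therefore without a test. Csta3, a stefin A gene of the same cluster outside the 7, was dim with PBS (3.98, 3.63 and 4.03) and higher in each G-CSF array (5.32, 5.91 and 4.98), a difference of 1.53 (SE 0.26). All PBS arrays and G-CSF replicate 3 lay under 5.137 for Csta3, and its difference with values raised to that limit was not computed. Csta2 differed by 0.24 (SE 0.27) and Csta1 by -0.40 (SE 0.58), both with overlapping groups and means under 5.137. The promoter of Csta3 holds the stretch in capitals, beginning at -80, and those of Csta1 and Csta2 do not. That stretch was picked as one that the members share, and a link between it and the differences was not tested. The genes Cstdc4, Cstdc3 and Gm7260 of the cluster matched no probeset.

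The genes that flank the cluster had differences from -1.17 to 0.13. On the side of Csta1, Wdr5b was at 5.77 ± 0.30 with PBS and 4.77 ± 0.05 with G-CSF (SD, n = 3 each), with each G-CSF array lower than any PBS array. Fam162a differed by -0.59 (SE 0.32) and Ccdc58 by -1.17 (SE 0.77), with overlapping groups. On the side of Stfa3, the calcium-sensing receptor gene Casr differed by -0.01 (SE 0.17), Cd86 by -0.40 (SE 0.30) and Ildr1 by 0.13 (SE 0.16). Beside Cstb on chromosome 10, Rrp1 differed by -0.25 (SE 0.26) and the pyridoxal kinase gene Pdxk by 0.40 (SE 0.37).

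**Figure D3:**
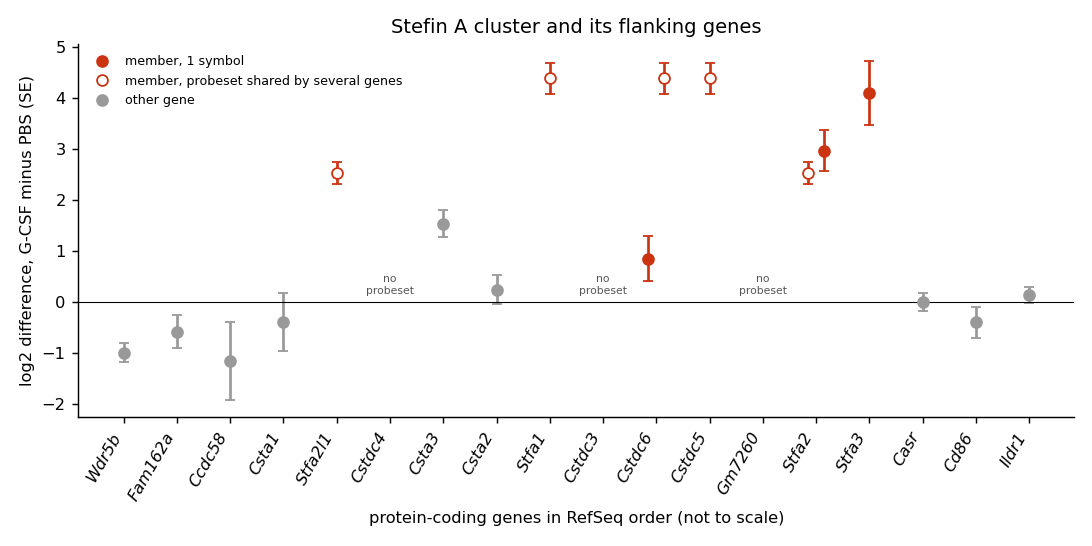
Log2 difference, G-CSF minus PBS, with SE (y axis) for the protein-coding genes of the stefin A cluster and 3 flanking genes on each side (x axis, RefSeq order, not to scale). Open red circles are probesets shared by several genes and are drawn once for each of them; the members lie above 0, the flanking genes lie at or below 0.13, and 3 genes have no probeset.

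Within a group, the readings of the members did not move together from array to array, and part of these readings were dim. PBS replicate 1 was the highest of its group for Stfa3 (1.23 above the group mean) and the lowest for Stfa2 (-0.58). G-CSF replicate 2 was the highest of its group for the shared Stfa1, Cstdc5 and Cstdc6 probeset (0.41) and for Cstdc6 (0.94), while Stfa3 was lowest there (-0.54). Over the 10 pairs of stefin A probesets, Pearson's r of the deviations from the group means (6 arrays) ran from -0.39 to 0.66 with a median of -0.04. The highest value joined Cstdc6 and the probeset that it shares with Stfa1 and Cstdc5. Next came Stfa3 with that shared probeset (0.49) and the pair of probesets that carry Stfa2 (0.44). Cstb and the shared Stfa2l1 and Stfa2 probeset gave 0.84, although Cstb did not share the difference between groups. Under the limit lay 3 PBS and 2 G-CSF arrays for Cstdc6, and 2 PBS arrays each for Stfa2 and Stfa3. The part of such dim readings in the deviations and in r was not tested. The shared stefin A probesets had no array under the limit and gave -0.08 with each other. All these r values rest on 6 arrays with 2 group means removed and are descriptions, not a measure of whether the genes vary independently.

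**Figure D4:**
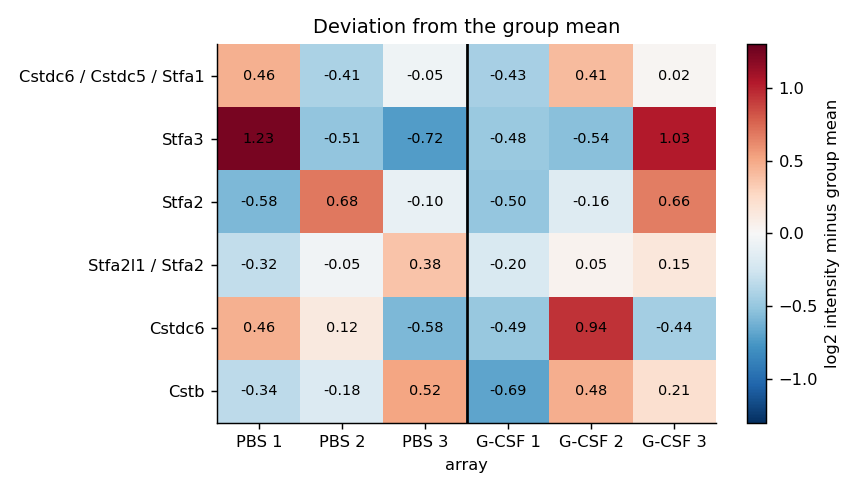
Deviation of the log2 intensity from the group mean (colour and printed values) for each member probeset (rows) in each of the 6 arrays (columns). The arrays that stand highest differ between probesets, as with PBS replicate 1 for Stfa3 (1.23) and PBS replicate 2 for Stfa2 (0.68). For both genes the other PBS arrays lay under the limit.

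The genes whose 6 values followed the mean profile of the 5 stefin A probesets most closely were found among 15565 probesets with 1 symbol and a mean above the limit. Bst1 (CD157, an ectoenzyme of myeloid and stromal cells) came first, with Pearson's r of 0.994 over 6 arrays and a difference of 1.22 (SE 0.17). Fndc3a (0.988), Csf2rb2 (0.986, a beta chain of the interleukin 3 receptor), Wfdc17 (0.985), Siglece (0.985, a sialic acid-binding lectin of myeloid cells) and the zinc transporter gene Slc39a7 (0.984) followed. Because the profile is mostly a step between the groups, such an r mostly reflects a like step. By deviations from the group means alone, Slc39a7 gave 0.91, Bst1 0.86, Wfdc17 0.62, Fndc3a 0.54, Siglece 0.32 and Csf2rb2 0.30. None of these was among the 6 nearest by deviations. For Cstb the nearest were Slc66a2 (0.997), the RNA helicase gene Ddx21 (0.995) and the mitochondrial ribosomal protein gene Mrpl24 (0.994), each with a difference between groups under 0.1.

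The other genes of the pathway were tested by limma across the 23410 probesets with Benjamini-Hochberg adjustment. At an adjusted p under 0.05, 0.0171% of all probesets (4) were called higher and 0% lower with G-CSF. These 4 were Lilr4b, Slfn4 and the shared stefin A probesets. For the latter the call is no support, because the members were chosen with this contrast known. With the replicate number as a block, 0 were called, and 0 were also called when any 1 of the 6 arrays was left out. At an unadjusted p under 0.05, 534 probesets were higher and 588 lower, and 51.6% of all differences were positive.

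A list of other cystatins (type 2 cystatins, kininogens, fetuins and related genes, without Csta1, Csta2 and Csta3 of the cluster) had no called probeset (0 of 16 by limma, and 0 at an unadjusted p under 0.05). Its median difference was 0.02, with 10 positive and 6 negative. Csta3, described above at 1.53 with every PBS array under the limit, is thus outside this count. Cst3, the secreted cystatin C, was at 9.94 ± 0.39 with PBS and 9.82 ± 0.37 with G-CSF (SD, n = 3 each), a difference of -0.12 (SE 0.27, limma adjusted p = 0.999). Cst7, cystatin F of myeloid and cytotoxic cells, differed by 0.49 (SE 0.29, limma adjusted p = 0.991) with overlapping groups. Fetub, a fetuin, differed by 0.17 (SE 0.16) and Cstdc2 by 0.17 (SE 0.17), both with all arrays under the limit. Only 5 of the 16 had a mean above the limit, and among those the median difference was -0.07.

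The proteases that stefins bind were measured too. Of the 11 cysteine cathepsins and legumain, 0 were called by limma and 1 had an unadjusted p under 0.05, while 10 of 11 differences were positive with a median of 0.19. The groups were separated with G-CSF higher in 2 of the 11, Ctsw and Ctso (5.34% of all probesets). The probeset with the unadjusted p under 0.05 was Ctss, the cathepsin of antigen-presenting cells, which read 8.07, 7.97 and 8.34 with PBS and 8.29, 8.70 and 8.80 with G-CSF. Its difference was 0.47 (SE 0.20, limma adjusted p = 0.991) and the groups overlapped. Ctsc, which activates granule serine proteases, differed by 0.89 (SE 0.43) Ctsw by 0.29 (SE 0.19) and Ctso by 0.23 (SE 0.16). Ctsb differed by 0.19 (SE 0.17), Ctsh by 0.12 (SE 0.24) and Ctsl by -0.06 (SE 0.35). The cathepsin differences were thus smaller in these arrays than those of the 4 separated stefin A probesets, a comparison that was not tested because the latter were chosen for theirs.

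Among leukocyte inhibitors of serine proteases, 0 of 13 probesets were called and 4 had an unadjusted p under 0.05 with G-CSF higher. The groups were separated upwards in those 4 and downwards in 2, Serpinb3a and Serpinb6b (5.34% and 4.5% of all probesets). Wfdc17, a small secreted protein with a WAP domain, read 7.13, 6.74 and 7.40 with PBS and 9.82, 10.46 and 10.90 with G-CSF. Its difference was 3.31 (SE 0.31), and its limma adjusted p of 0.0527 missed the threshold, with a range of 0.0309 to 0.348 over the alternatives. Serpinb1a, an inhibitor of neutrophil elastase, differed by 1.21 (SE 0.26, limma adjusted p = 0.466), and Wfdc21 by 1.31 (SE 0.41). Other clade B serpins lay on the other side of 0, such as Serpinb6b (-0.78, SE 0.40) and Serpinb9 (-0.56, SE 0.29). The list's median was 0.03, and it was 0.32 without the dimmest 25% of probesets and 1.21 without the dimmest 50%.

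**Figure D5:**
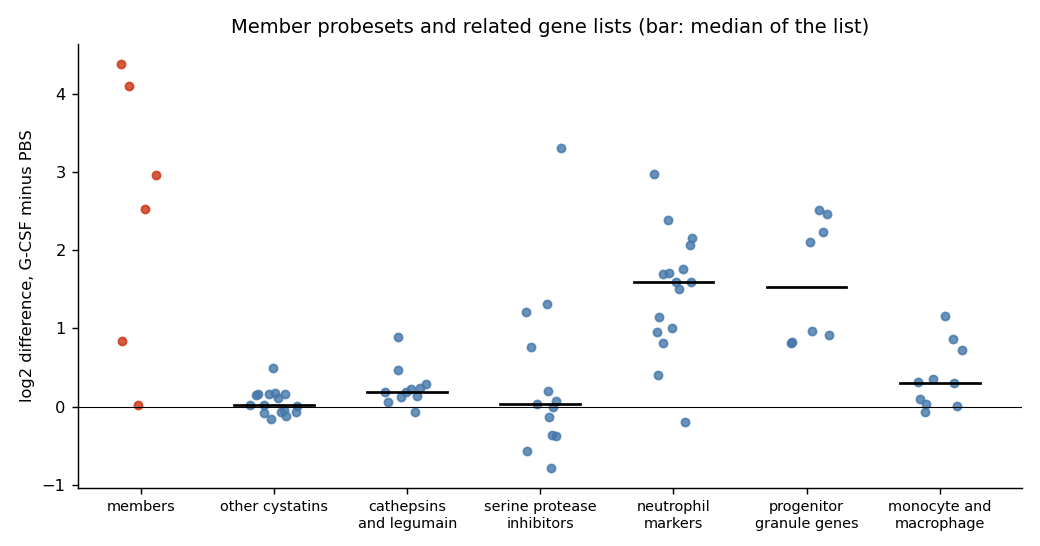
Log2 difference, G-CSF minus PBS (y axis), of the member probesets in red and of the probesets of 6 gene lists in blue (x axis), with the median of each list as a bar. Other cystatins (median 0.02) and the cathepsins and legumain (0.19) lie near 0, while neutrophil markers (1.59) and progenitor granule genes (1.54) lie above it. The other cystatins leave out Csta1, Csta2 and Csta3, of which Csta3, under the limit in every PBS array, was at 1.53.

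Most markers of neutrophils had higher values with G-CSF, though none passed the test. Of 16 probesets of mature neutrophil markers, 15 were separated with G-CSF higher, beside 5.34% of all probesets. The median difference was 1.59, and 0 were called by limma while 15 had an unadjusted p under 0.05. The array mean of this list ran from 7.89 to 8.74 with PBS and from 9.64 to 10.29 with G-CSF. Ltf (lactoferrin) differed by 2.16 (SE 0.29, limma adjusted p = 0.189), Cxcr2 by 2.97 (SE 0.48), Lcn2 by 2.06 (SE 0.34), S100a8 by 0.95 (SE 0.20) and S100a9 by 0.81 (SE 0.21). Ly6g, the surface marker used to define neutrophils, was the exception at -0.19 (SE 0.49). No array lay under the limit for any of these 6. All 8 progenitor granule genes were likewise separated, with a median of 1.54 and array means of 6.28 to 6.62 with PBS and 7.71 to 8.69 with G-CSF, and 0 were called by limma while 8 had an unadjusted p under 0.05. The granule protease gene Ctsg differed by 2.51 (SE 0.41), the haptoglobin gene Hp by 2.11 (SE 0.38) and the myeloperoxidase gene Mpo by 2.47 (SE 0.46). The part of both lists in the stefin A differences was not tested. From array to array within groups, the mean of the stefin A probesets and the neutrophil list gave r = -0.14 (deviations, 6 arrays). For the progenitor granule list it was 0.17. Over the 10 lists such r values ran from -0.64 (other cystatins) to 0.24 (granulocytic regulators). They rest on 6 arrays with 2 group means removed and are descriptions only.

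Other cells that express stefin A were looked for. Of 7 epidermal envelope probesets, 1 (loricrin, Lor) was separated, at 3.86 ± 0.26 with PBS and 4.36 ± 0.26 with G-CSF, all arrays under the limit, and the list's median was 0.04. Keratin genes of that list differed by 0.21 (Krt5, SE 0.17) and -0.14 (Krt10, SE 0.18). Of 10 monocyte, macrophage and dendritic cell probesets, 5 were separated with G-CSF higher (median 0.31). Over all probesets 5.34% were. Lyz2 differed by 1.16 (SE 0.32), F13a1 by 0.72 (SE 0.21) and Ccr2 by 0.86 (SE 0.27), while Adgre1, which defines macrophages, lay under the limit in all 6 arrays (0.01, SE 0.15). In these 2 lists 0 probesets were called by limma, while 1 and 3 had an unadjusted p under 0.05. Their part in the stefin A differences was not tested. Of the genes of the gate, Kit read 10.01 with PBS and 9.04 with G-CSF, a difference of -0.98 (SE 0.23, limma adjusted p = 0.538). The CD150 gene Slamf1 (6.51 and 6.32) and the gene of the excluded CD41, Itga2b (6.37 and 6.21), were dimmer. The Sca-1 gene Ly6a matched no probeset with that single symbol. The stem cell genes Hlf (10.49 and 10.33) and Meis1 (10.36 and 10.31), which are no part of the gate, were far above the limit. Itgam (CD11b, a myeloid marker of the kind that lineage depletion removes) read 6.16 with PBS and 7.92 with G-CSF, a difference of 1.76 (SE 0.45, limma adjusted p = 0.601). Its groups were separated upwards, and its part in the stefin A differences was not tested. Ptprc (CD45) differed by 0.44 (SE 0.20). Of these 13 sort and stem cell probesets 0 were called, 1 was separated upwards (Itgam) and 1 downwards (Kit), and the median was -0.16. The gate's excluded marker Cd48 was at 5.46 ± 0.77 with PBS and 5.35 ± 0.65 with G-CSF. Among 10 lineage markers outside myeloid cells 0 were called, 1 was separated upwards and 2 downwards (5.34% and 4.5% of all probesets). Pf4 of platelets differed by -1.92 (SE 0.37, limma adjusted p = 0.396), the platelet integrin gene Itgb3 by 0.45 (SE 0.15) and the B cell gene Ms4a1 by -0.36 (SE 0.19).

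Of the granulocytic regulators, 5 of 10 were separated with G-CSF higher (5.34% of all probesets), 0 were called by limma, 4 had an unadjusted p under 0.05, and the median was 0.27. Stat3, which carries the signal of the G-CSF receptor, differed by 0.91 (SE 0.20, limma adjusted p = 0.484), the receptor gene Csf3r by 1.51 (SE 0.41) and Cebpe, a factor of late granulocyte maturation, by 0.42 (SE 0.14). The other separated regulators were Spi1 at 0.95 (SE 0.35) and Cebpb at 0.24 (SE 0.17). With overlapping groups, Cebpa differed by 0.29 (SE 0.20) and Gfi1 by -0.11 (SE 0.14). Csf3r is also counted among the mature neutrophil markers, and Irf8 among the monocyte, macrophage and dendritic cell markers.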

How the data were processed

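The deposited values are intensities on a linear scale (2.7 to 19069), and per the submitters' processing notes RMA made them. The sources name no version of it and no genome build. RMA evens out array-wide differences and can compress dim values. Log2 was taken, and limma 3.58.1 (R 4.3.3; lmFit, eBayes, no covariate) was fitted across the 23410 probesets with a symbol, with p-values adjusted over all genes by Benjamini-Hochberg, two-sided, threshold 0.05. Of all probesets 21789 had 1 symbol, 1621 several and 12144 none, and list genes were matched through single symbols (113 of 129 entries). The limit of 5.137 is the 25% quantile of probeset means and no measured background. Precision is limited by 3 arrays per group. The members and the 10 lists were chosen with earlier results of these data known. Genes named from a list are the 3 with the smallest p plus 11 set in advance, with a few more after seeing values. Over the 23410 probesets with a symbol, deviations of same-numbered PBS and G-CSF arrays gave r = 0.50, 0.11 and 0.22 for replicates 1, 2 and 3. PBS replicates 1 and 2 correlated best with the G-CSF array of their own number, and PBS replicate 3 did not. The labels state no pairing, and these values do not establish one. Promoters are RefSeq's (GRCm38.p6), aligned with Biopython 1.88. The fit was tested on simulated data with 200 probesets changed. It recovered 26.8% of log2 changes of 1, 74.8% of 2, 85.6% of 3 and 93.6% of 4. The median number of false calls was 6. Alternatives changed the filter, probesets fitted, normalization, variance model, array weights, log2 offset, block and arrays.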

Additional observations from a re-analysis of the deposited data

How the results depend on the processing

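All 6 member differences stayed within 1 replicate SD of their reported value under every alternative that could give one. They ran from 4.06 to 4.61 for the shared Stfa1, Cstdc5 and Cstdc6 probeset, 3.29 to 4.71 for Stfa3, 2.35 to 3.30 for Stfa2, 2.27 to 2.71 for the shared Stfa2l1 and Stfa2 probeset, 0.22 to 1.09 for Cstdc6 and -0.22 to 0.37 for Cstb. With 1 probeset per gene the shared probesets and Cstdc6 have no value, and Cstdc6 has none under either filter. The count of probesets called higher (4) was 7 with the trend and robust variance model, 1 with values raised to the limit (chosen after seeing the data, 1 called lower), 0 over every row of the table, 0 with the replicate block and 0 to 0 with each array left out. The replicate block changed no other call. In the serine protease inhibitor list Wfdc17 was the 1 called probeset under 6 alternatives (both filters, 1 probeset per gene, quantile normalization again, trend and robust, array weights). None of the 6 genes nearest to the stefin A profile stayed nearest by Spearman's rho (0 of 6, with 24 genes tied at rho = 1) or by deviations (0 of 6). With 250 bases searched instead of 300, the AP-1 match in Stfa3 was lost (0 of 5). The cause of these changes was not tested, apart from fewer arrays or other probesets in the fit.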

Other observations

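By deviations from the group means, the genes nearest to the stefin A profile were others than those nearest by value. Ache gave r = 0.999 and Agfg1 0.997 over 6 arrays, with differences between groups of -0.07 (SE 0.23) and 0.50 (SE 0.18). Celf1, Tcp11l2, Akt1 and Kdm4c followed, at 0.991 to 0.996. For Cstb, Stk11ip came first (0.998).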
